A study of Rattus norvegicus with 9 samples.

Results

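Blood clotting starts when tissue factor, a membrane protein encoded by F3, binds factor VII and sets off the cascade that makes thrombin. Tissue factor pathway inhibitor (Tfpi) holds this step back, thrombomodulin (Thbd) turns thrombin towards its anticoagulant role, and thrombin signals to cells by cutting the receptor encoded by F2r. Clots and pericellular matrix are dissolved by plasmin, which is released from plasminogen by urokinase (Plau), held at the cell surface by its receptor (Plaur), and by tissue plasminogen activator (Plat). The 8 genes described here, F3, Tfpi, Tfpi2, Thbd, F2r, Plau, Plaur and Plat, cover these steps. They were found by symbol among 14506 genes measured on the arrays. Each had exactly 1 row of values, so no choice between rows was needed. The list was chosen by pathway and selected on log2 differences between surfaces on these same arrays that were already known, that of F3 among them. The p-values below therefore describe these arrays and are not independent support for any pattern among the 8 genes.

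The cells were pancreatic stellate cells, the fibroblast-like cells of the pancreas that lay down scar matrix when activated. They were isolated from male Sprague Dawley rats on a Nycodenz density gradient, and were all kept for 72 hours in the same medium with 10% serum in dishes of 10 cm. The dishes were coated with Matrigel, a basement membrane extract (2 arrays), coated with collagen I, a fibrillar collagen abundant in scar (3 arrays), or left as uncoated plastic (4 arrays). Each array measured total RNA on an Affymetrix rat whole-transcript chip, and all values are log2 expression levels. Whether the arrays of a surface stand for different animals is not stated in the labels. The p-values therefore rest on the spread among these 9 samples alone, which may be technical.

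A letter in the array titles, A, P, S or Z, recurs between surfaces and its meaning is not stated. Matrigel arrays carry A and S, collagen I arrays A, P and Z, and plastic arrays all 4. The titles also carry a number of unstated meaning whose ranges do not overlap between surfaces, so anything it records cannot be told apart from the surface. Fibroblast genes were bright, with Col1a1 between 12.45 and 12.95 on every array, and none of 14 stellate and fibroblast markers was dim on all surfaces. Dim means a group mean under 4.25, the 40th percentile of all genes. The mean of these 14 was 9.80 to 9.93 on Matrigel, 10.42 to 10.66 on collagen I and 10.35 to 10.54 on plastic. Of them Col3a1, Des, Lum and Thy1 fell on Matrigel against plastic, and on collagen I Postn rose and Des fell against plastic. Des and Thy1 were also lower on Matrigel than on collagen I. Macrophage and monocyte markers were also present, and their mean over 19 genes was 7.33 to 7.54 on Matrigel, 6.14 to 7.02 on collagen I and 6.15 to 7.10 on plastic. Of 15 acinar and islet markers 7 rose on Matrigel against plastic, where 4.52% of all genes rose. Against collagen I 4 of them were higher on Matrigel, where 1.21% of all genes were. The mean of the 15 was 5.83 to 6.83 on Matrigel, 4.68 to 5.33 on collagen I and 4.41 to 5.17 on plastic. Ins1 was bright, averaging 11.76 on Matrigel, 10.73 on collagen I and 9.80 on plastic, while 5 of the 15 were dim on all surfaces. The part of these other cells in the results below was not tested.

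Across the 3 surfaces, F3 showed the widest span of the 8 genes: it was lowest on Matrigel, intermediate on collagen I and highest on plastic. On Matrigel F3, Tfpi and F2r fell against plastic. On collagen I F3 fell and Plaur rose. Thbd, Tfpi2, Plau and Plat passed the threshold in none of the 3 comparisons. With the title letter as a fixed replicate block, Plau (adjusted p = 0.0105) and Plat (adjusted p = 0.0136) passed in limma between Matrigel and plastic, both lower on Matrigel. With it as a random block neither passed (limma adjusted p = 0.445 and 0.261). A pairing of Matrigel with plastic arrays by letter is not established, and the main fit did not use the letter. In limma, with p adjusted over all genes and a threshold of 0.05, 3 of the 8 genes passed between Matrigel and plastic, all lower on Matrigel, where 10.4% of all genes passed in either direction, 4.52% higher and 5.85% lower. Between collagen I and plastic 2 of 8 passed, 1 higher and 1 lower, where 6.12% of all genes passed, 2.95% higher and 3.17% lower. Between Matrigel and collagen I 2 of 8 passed, both lower on Matrigel, where 2.67% of all genes passed, 1.21% higher and 1.45% lower. The median difference of the 8 genes was -0.54 between Matrigel and plastic, -0.09 between collagen I and plastic and -0.62 between Matrigel and collagen I. Over all genes these medians were -0.01, 0.00 and -0.02. Since the 8 genes were picked with these comparisons known, their share is a description and was not compared with that of all genes.

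**Figure D1:**
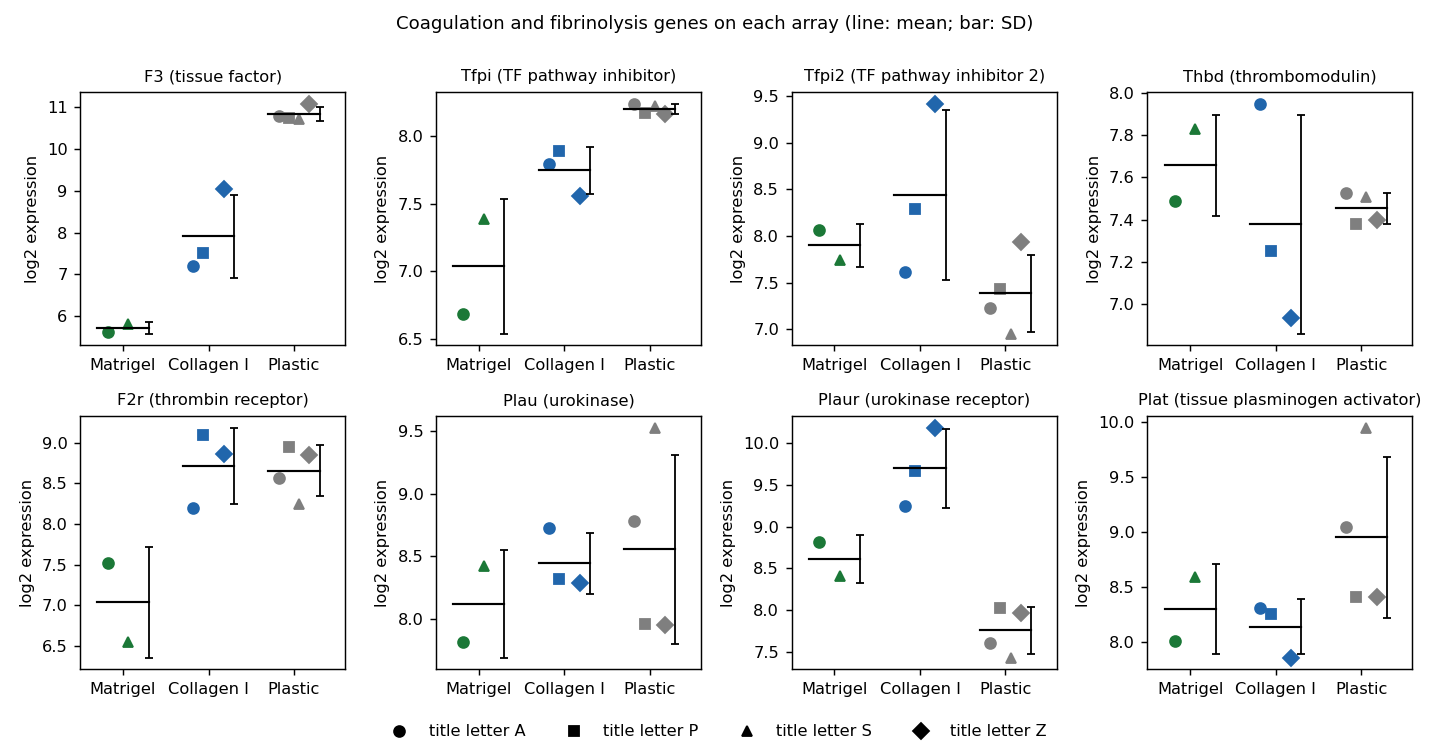
Log2 expression (vertical axes) of the 8 genes on each array, with arrays of cells on Matrigel (2), collagen I (3) and plastic (4) side by side; symbols give the title letter, horizontal lines the mean and bars the SD. F3 separates the 3 surfaces without overlap, Plaur is highest on the collagen I arrays, and Plau and Plat spread widely among the plastic arrays.

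F3 (Entrez gene 25584) encodes tissue factor, the cell-surface starter of coagulation. Its level was 5.62 and 5.82 on the Matrigel arrays of letters A and S. It was 7.19, 7.51 and 9.04 on the collagen I arrays of letters A, P and Z, and 10.79, 10.74, 10.72 and 11.09 on the plastic arrays of letters A, P, S and Z. No array of one surface overlapped another surface, and the collagen I array of letter Z stood nearest to plastic. In bulk RNA, fewer cells that make a transcript and less of it per cell cannot be told apart, here and in every result that follows.

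F3 averaged 5.72 ± 0.14 on Matrigel (SD, n = 2) and 10.83 ± 0.17 on plastic (SD, n = 4), a fall of 34.5-fold on Matrigel (difference -5.11 ± 0.43, SE; limma adjusted p = 0.000512). Ranked by this difference, it was the lowest of 8520 genes that were not dim on either surface. On collagen I it averaged 7.91 ± 0.99 (SD, n = 3) and fell 7.57-fold against plastic (difference -2.92 ± 0.38, SE; limma adjusted p = 0.00296), rank 9 from the lowest of 8541 genes. Within letters, Matrigel stood below plastic by -5.17 for A and -4.89 for S, and collagen I below plastic by -3.60 for letter A, -3.23 for letter P and -2.04 for letter Z. The fall on Matrigel was thus seen in both letters that allow it, and that on collagen I in all 3.

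F3 was also 4.56-fold lower on Matrigel than on collagen I (difference -2.19 ± 0.45, SE; limma adjusted p = 0.0448). That call was close to the threshold and passed under 7 of 18 alternative settings, with adjusted p from 0.0122 to 0.227. Of the 9 fits that each left out 1 array, 2 kept it: those without the collagen I array of letter A or Z. Within letter A, the only one shared by the 2 matrices, the difference was -1.57. The falls against plastic passed under all 19 alternatives for Matrigel and all 18 for collagen I. The mean of the macrophage and monocyte markers was highest on the 2 Matrigel arrays, where F3 was lowest; its part in the result was not tested.

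**Figure D2:**
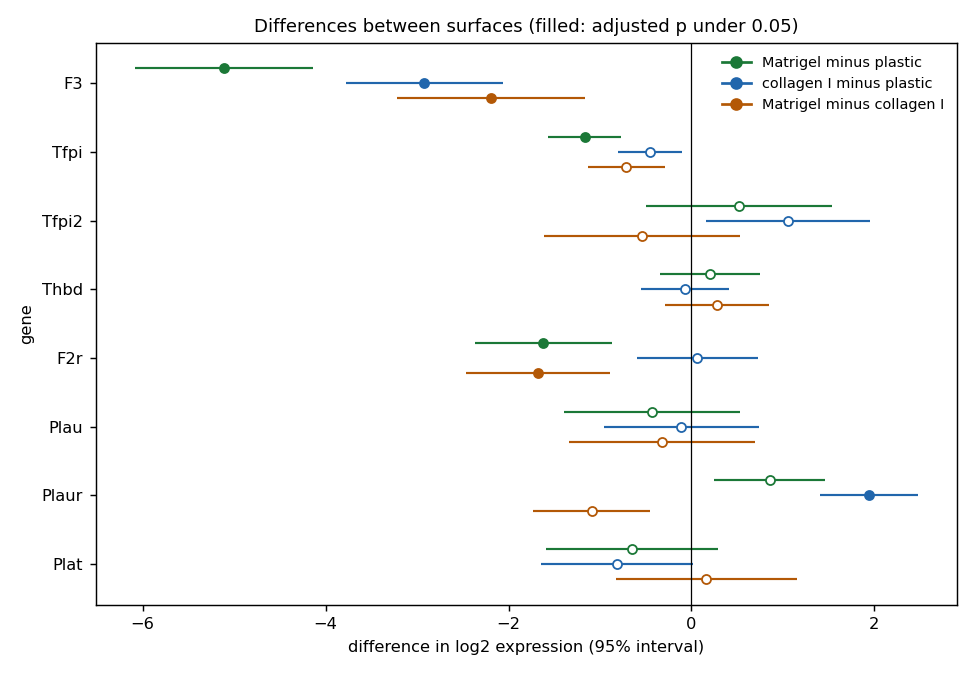
Fitted differences in log2 expression (horizontal axis) with 95% intervals for the 8 genes, for Matrigel minus plastic (green), collagen I minus plastic (blue) and Matrigel minus collagen I (orange). Filled points passed an adjusted p of 0.05: F3 in all 3 comparisons, Tfpi in Matrigel minus plastic, F2r in both comparisons that involve Matrigel and Plaur in collagen I minus plastic.

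The inhibitors of coagulation did not move alike. Tfpi (Entrez gene 29436), which blocks the complex of tissue factor with factor VII, was 6.68 and 7.39 on the Matrigel arrays of letters A and S. It was 7.80, 7.89 and 7.56 on the collagen I arrays of letters A, P and Z, and 8.24, 8.18, 8.23 and 8.17 on the plastic arrays of letters A, P, S and Z. Plastic arrays lay within a narrow band above every array of either matrix, and both Matrigel arrays lay below the collagen I arrays.

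Tfpi fell 2.25-fold on Matrigel against plastic (difference -1.17 ± 0.17, SE; limma adjusted p = 0.00469). The plastic arrays differed little among themselves, with 7.04 ± 0.50 on Matrigel (SD, n = 2) and 8.20 ± 0.04 on plastic (SD, n = 4). Collagen I differed from plastic by -0.46, with a 95% interval from -0.81 to -0.11, and did not pass (limma adjusted p = 0.143). With only the collagen I and plastic arrays in the fit, it passed at limma adjusted p = 0.0224. Leaving out either Matrigel array repeats that fit, since a lone Matrigel array adds no spread. These settings were 3 of 18 alternatives, and no other passed, with limma adjusted p up to 0.354. Matrigel differed from collagen I by -0.71, with an interval from -1.13 to -0.29 (limma adjusted p = 0.0889). That difference was -1.07 without the Matrigel array of letter S and -0.36 without that of letter A, each resting on 1 Matrigel array. It passed under no alternative that kept both Matrigel arrays. F3 and Tfpi, starter and inhibitor of the same step, thus stood in the same order over the surfaces, and their Pearson r over the 9 arrays was 0.853, a description of arrays that share their surfaces.

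Tfpi2 (Entrez gene 286926) encodes a related inhibitor that is laid down in extracellular matrix and acts on plasmin and other serine proteases. It was 8.06 and 7.74 on Matrigel in letters A and S. On collagen I it was 7.61, 8.29 and 9.42 in letters A, P and Z, against 7.22, 7.43, 6.95 and 7.93 on plastic in letters A, P, S and Z. Groups overlapped, although within each letter the coated dish was above plastic, by 0.84 and 0.79 for Matrigel and by 0.39, 0.85 and 1.49 for collagen I. Tfpi2 differed by 0.52 between Matrigel and plastic (interval -0.50 to 1.53; limma adjusted p = 0.563). It differed by 1.05 between collagen I and plastic (interval 0.16 to 1.95; limma adjusted p = 0.185). Between Matrigel and collagen I it differed by -0.54 (interval -1.61 to 0.54; limma adjusted p = 0.623).

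Thbd (Entrez gene 83580) encodes thrombomodulin, best known from vascular endothelium. It was 7.49 to 7.83 on Matrigel, 6.93 to 7.95 on collagen I and 7.38 to 7.52 on plastic, so all 3 surfaces overlapped. The differences were 0.20 for Matrigel minus plastic (interval -0.34 to 0.75; limma adjusted p = 0.684) and -0.07 for collagen I minus plastic (interval -0.55 to 0.41; limma adjusted p = 0.896). Matrigel minus collagen I was 0.28 (interval -0.29 to 0.85; limma adjusted p = 0.634). The defining endothelial genes Cdh5 and Pecam1 were dim, with Cdh5 between 2.86 and 3.07 and Pecam1 between 2.51 and 3.16 over all arrays. Of 15 endothelial markers 10 were dim on all surfaces, while Tek, Eng, Egfl7, Esam and Tie1 were not, and the mean of the 15 was 4.34 to 4.44 on Matrigel, 4.24 to 4.33 on collagen I and 4.24 to 4.34 on plastic. Tie1 rose on Matrigel against plastic by 1.05 (limma adjusted p = 0.00462) and against collagen I by 0.96 (limma adjusted p = 0.0251). Egfl7 fell by 0.34 on Matrigel against plastic (limma adjusted p = 0.0196). Their part in the values of Thbd was not tested.

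F2r (Entrez gene 25439) encodes PAR1, the receptor that thrombin activates by cutting its extracellular end. It was 7.52 and 6.56 on the Matrigel arrays of letters A and S. It was 8.20, 9.09 and 8.87 on collagen I in letters A, P and Z, and 8.57, 8.95, 8.25 and 8.85 on plastic in letters A, P, S and Z. Both Matrigel arrays lay below all others, while collagen I and plastic overlapped.

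F2r averaged 7.04 ± 0.68 on Matrigel (SD, n = 2), 8.72 ± 0.47 on collagen I (SD, n = 3) and 8.66 ± 0.31 on plastic (SD, n = 4). It fell 3.07-fold on Matrigel against plastic (difference -1.62 ± 0.33, SE; limma adjusted p = 0.0166). It was 3.21-fold lower on Matrigel than on collagen I (difference -1.68 ± 0.35, SE; limma adjusted p = 0.0441). Collagen I differed from plastic by 0.06, with a 95% interval from -0.59 to 0.72 (limma adjusted p = 0.938). Both Matrigel calls were lost without the Matrigel array of letter S, at -1.14 against plastic and -1.20 against collagen I, each from 1 Matrigel array. The call against plastic was also lost with plastic letters A and S only (-1.37, limma adjusted p = 0.121), a setting chosen after seeing the data. The call against collagen I passed under 7 of 18 alternatives, and of the 9 fits without 1 array it was kept only in those without the collagen I array of letter A or the Matrigel array of letter A. Within letters Matrigel stood below plastic by -1.05 for A and -1.70 for S, and below collagen I by -0.68 for A.

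The plasminogen activators and the urokinase receptor differed from each other in their pattern. Plaur (Entrez gene 50692) encodes the receptor that concentrates urokinase at the cell surface. It was 8.81 and 8.41 on the Matrigel arrays of letters A and S. It was 9.24, 9.67 and 10.19 on collagen I in letters A, P and Z, and 7.60, 8.02, 7.43 and 7.97 on plastic in letters A, P, S and Z. The 3 surfaces did not overlap, with collagen I highest and plastic lowest.

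Plaur averaged 9.70 ± 0.47 on collagen I (SD, n = 3) and 7.76 ± 0.29 on plastic (SD, n = 4), a rise of 3.85-fold on collagen I (difference 1.95 ± 0.23, SE; limma adjusted p = 0.00216). It ranked 35 from the highest of 8541 genes in that comparison and passed under all 18 alternatives. On Matrigel it averaged 8.61 ± 0.28 (SD, n = 2), which was 0.86 above plastic (interval 0.25 to 1.46) and did not pass (limma adjusted p = 0.0831). That difference passed under 3 alternatives: without the collagen I array of letter Z (adjusted p = 0.0463), and with the title letter as a fixed replicate block (1.16, adjusted p = 0.0115) or a random one (0.92, adjusted p = 0.0438). Matrigel differed from collagen I by -1.09 (interval -1.73 to -0.45; limma adjusted p = 0.0882). Within letters, collagen I was above plastic by 1.64, 1.65 and 2.22 for A, P and Z, and Matrigel above plastic by 1.21 and 0.98 for A and S.

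Plau (Entrez gene 25619), which encodes urokinase, the ligand of that receptor, was 7.82 and 8.43 on Matrigel in letters A and S. On collagen I it was 8.73, 8.32 and 8.29 in letters A, P and Z, and on plastic 8.78, 7.96, 9.52 and 7.96 in letters A, P, S and Z. Plat (Entrez gene 25692), which encodes tissue plasminogen activator, was 8.01 and 8.59 on Matrigel, 8.31, 8.25 and 7.85 on collagen I, and 9.05, 8.40, 9.95 and 8.40 on plastic, in the same order of letters. Both genes spread most on plastic, where the arrays of letters A and S were above those of P and Z, and all groups overlapped but for Plat, whose collagen I arrays all lay below plastic.

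Neither activator passed in any comparison fitted without the title letter. Plau differed by -0.43 between Matrigel and plastic (interval -1.39 to 0.53; limma adjusted p = 0.616). It differed by -0.11 between collagen I and plastic (interval -0.96 to 0.74; limma adjusted p = 0.915) and by -0.32 between Matrigel and collagen I (interval -1.34 to 0.69; limma adjusted p = 0.781). Plat differed by -0.65 between Matrigel and plastic (interval -1.59 to 0.29; limma adjusted p = 0.398). It differed by -0.81 between collagen I and plastic (interval -1.64 to 0.01; limma adjusted p = 0.271) and by 0.16 between Matrigel and collagen I (interval -0.83 to 1.15; limma adjusted p = 0.906). These wide intervals allow a change of 2-fold in at least 1 direction in each comparison except that of Plau between collagen I and plastic. Within letters, Plau on Matrigel was below plastic by -0.96 for A and -1.10 for S, and Plat by -1.04 for A and -1.36 for S. With the letter as a fixed replicate block the difference was -0.95 for Plau (limma adjusted p = 0.0105) and -1.11 for Plat (limma adjusted p = 0.0136), both past the threshold. With it as a random block neither passed, and a pairing of Matrigel with plastic arrays by letter is not established. On collagen I Plau differed from plastic by -0.06, 0.36 and 0.33 for A, P and Z, and Plat by -0.74, -0.15 and -0.55.

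The letters that were high for Plau and Plat on plastic were also high in macrophage markers. The mean of 19 macrophage and monocyte markers was 6.78, 6.15, 7.10 and 6.16 on the plastic arrays of letters A, P, S and Z. It was 7.33 and 7.54 on Matrigel in letters A and S, where Plau and Plat stood below the plastic array of the same letter, and 6.14, 6.31 and 7.02 on collagen I in letters A, P and Z. Between the Matrigel arrays, Plau and Plat were also higher in letter S, which had the higher marker mean. On collagen I the order was different: letter Z had the highest marker mean and the lowest Plau (8.29) and Plat (7.85). Of the 19 markers 2 rose on Matrigel against plastic, Itgam and Laptm5, with a list median difference of 1.00. Among all genes 10.4% passed in either direction there and 4.52% rose. An unadjusted p under 0.05 in limma was found for 10 of the 19. None of the 19 passed on collagen I, where 2 had an unadjusted p under 0.05 in limma. Their part in the values of Plau and Plat was not tested.

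**Figure D3:**
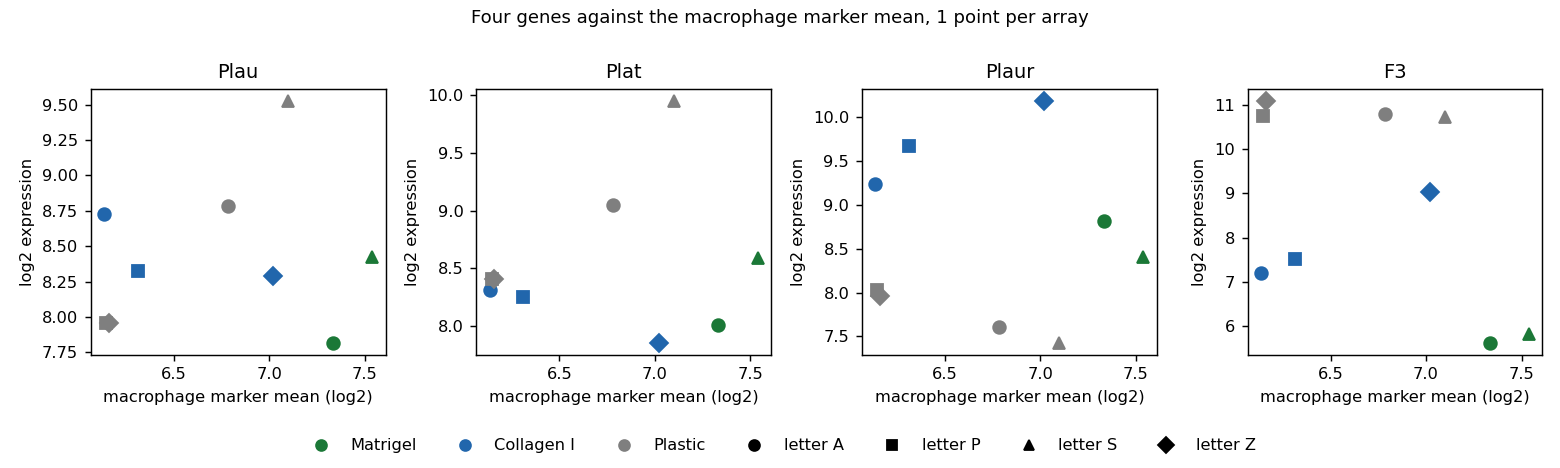
Log2 expression of Plau, Plat, Plaur and F3 (vertical axes) against the mean log2 level of 19 macrophage and monocyte markers (horizontal axes), with 1 point per array, coloured by surface and shaped by title letter. On plastic (grey), Plau and Plat are higher on the 2 arrays with the higher marker mean, whereas F3 stays between 10.72 and 11.09 over the same arrays. On collagen I (blue), Plau and Plat are lowest on the array with the highest marker mean.

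The sequence before the gene start could be shown for 5 of the 8 genes, with 6 promoters, from RefSeq on the rat build GRCr8. Plaur, Plau and F2r are shown because the receptor Plaur rose on collagen I without its ligand Plau passing, and F2r fell on Matrigel. Tfpi also fell on Matrigel, but its 2 promoters are not shown, and neither is that of Tfpi2. Their motif counts are given below. Each line gives the 250 bases before the start, 5′ to 3′ on the strand of the gene. Capitals mark the AP-1 motif TGANTCA and the GC box GGGCGG, searched on both strands.
Plaur, chr1:89181113-89181362, plus strand: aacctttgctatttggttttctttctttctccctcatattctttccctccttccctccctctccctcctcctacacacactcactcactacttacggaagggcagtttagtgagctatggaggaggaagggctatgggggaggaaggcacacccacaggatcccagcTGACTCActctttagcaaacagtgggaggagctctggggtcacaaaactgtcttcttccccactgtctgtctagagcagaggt
Plau, chr15:3511988-3512237, minus strand: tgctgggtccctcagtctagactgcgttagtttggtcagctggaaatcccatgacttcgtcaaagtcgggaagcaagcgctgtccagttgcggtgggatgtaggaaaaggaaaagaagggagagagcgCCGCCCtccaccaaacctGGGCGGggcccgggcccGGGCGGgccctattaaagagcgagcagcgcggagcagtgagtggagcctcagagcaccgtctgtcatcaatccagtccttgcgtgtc
F2r, chr2:28620580-28620829, minus strand: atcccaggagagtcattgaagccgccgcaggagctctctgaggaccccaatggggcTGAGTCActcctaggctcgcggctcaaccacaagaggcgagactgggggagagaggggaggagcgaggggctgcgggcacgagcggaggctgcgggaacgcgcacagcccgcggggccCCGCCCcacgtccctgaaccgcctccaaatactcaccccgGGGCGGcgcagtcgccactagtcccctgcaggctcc

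Plaur held 1 AP-1 motif, 83 to 77 bases before the start, and no GC box. Plau held 3 GC boxes and no AP-1 motif. F2r held 1 AP-1 motif, 194 to 188 bases before the start, and 2 GC boxes. Among all 33469 RefSeq promoters of this length, 6.34% held the AP-1 motif and 30.5% the GC box. Of the other promoters, that of Tfpi2 held 1 AP-1 motif and 1 GC box, and those of Tfpi held 0 AP-1 motifs and 1 GC box between them. A loose form of the NF-kB motif stood in 42.3% of all promoters. Counted on both strands, it was found 4 times in Plau, 2 times in F2r, 3 times in Tfpi2 and not in Plaur. The matches in Plau overlapped each other, at 104 to 94 and at 87 to 78 bases before the start. Those in F2r did so at 81 to 71 bases, and all of these matches lay in part over GC boxes. The EGR1 motif GCGNGGGCG, in 4.29% of all promoters, was in none of the 6, and the TEAD motif GGAATG, in 12.1% of all, was in 1 promoter of Tfpi. A match describes the letters in this window and says nothing of binding in these cells.

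Other genes of the plasminogen system were taken from a list made by pathway membership. Of 13 measured, 2 rose and 1 fell on Matrigel against plastic, with a list median difference of 0.03, and 1 rose and 1 fell on collagen I. Over all genes 4.52% rose and 5.85% fell on Matrigel, and 2.95% rose and 3.17% fell on collagen I. None of the 13 passed between Matrigel and collagen I, where 4 had an unadjusted p under 0.05 in limma. The protease inhibitor gene Serpine2, which encodes protease nexin-1, an inhibitor of thrombin and of plasminogen activators, was 6.58 and 6.11 on Matrigel, 6.04, 5.69 and 5.50 on collagen I and 4.56, 4.27, 4.54 and 4.40 on plastic. It separated all 3 surfaces, in the reverse order to F3. Serpine2 rose 3.74-fold on Matrigel (difference 1.90 ± 0.18, SE; limma adjusted p = 0.000669) and 2.46-fold on collagen I (difference 1.30 ± 0.16, SE; limma adjusted p = 0.00208), both against plastic. The difference between Matrigel and collagen I was 0.60 and did not pass (limma adjusted p = 0.141).

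Lrp1 encodes the endocytic receptor that clears protease and inhibitor complexes. It rose on Matrigel against plastic by 0.88 ± 0.17 (SE; limma adjusted p = 0.0125). Collagen I differed from plastic by 0.39 (limma adjusted p = 0.183). With the title letter as a fixed replicate block that difference was 0.50 (limma adjusted p = 0.0170). S100a10, the partner of annexin A2 in a cell-surface plasminogen receptor, fell on Matrigel by 0.97 ± 0.16 (SE; limma adjusted p = 0.00775) and on collagen I by 0.61 ± 0.14 (SE; limma adjusted p = 0.0440). The collagen I call of S100a10 was lost in 8 of the 9 fits that left out 1 array, at adjusted p up to 0.141. Its call on Matrigel and that of Lrp1 were lost without the Matrigel array of letter S (-0.83 and 0.65, each from 1 Matrigel array). Both were also lost with plastic letters A and S only (limma adjusted p = 0.0642 and 0.0981). Plg, which encodes plasminogen itself and is made mainly by the liver, was dim on every surface, at 2.99 to 3.13 on Matrigel, 3.13 to 3.19 on collagen I and 2.84 to 3.38 on plastic.

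**Figure D4:**
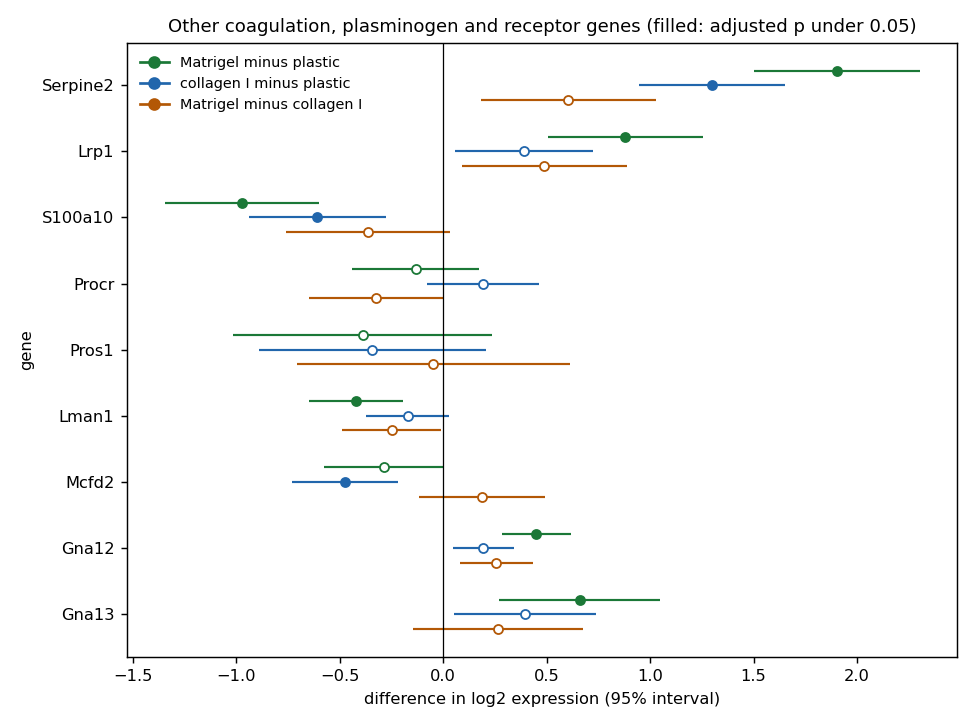
Fitted differences in log2 expression (horizontal axis) with 95% intervals for 9 other genes of coagulation, the plasminogen system and PAR1 signalling, for Matrigel minus plastic (green), collagen I minus plastic (blue) and Matrigel minus collagen I (orange). Filled points passed an adjusted p of 0.05; Serpine2 and S100a10 are filled in both comparisons with plastic, in opposite directions.

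Most clotting factors made by the liver were dim. Of 19 measured coagulation factors and their helper proteins 11 were dim on all surfaces, among them F2, which encodes prothrombin, and F10. In this list 1 gene fell on Matrigel and 1 on collagen I, both against plastic, and 0 rose. These counts stand close to the shares over all genes, of which 5.85% fell on Matrigel and 3.17% on collagen I. The genes called, Lman1 and Mcfd2, encode both subunits of a cargo receptor that carries factors V and VIII out of the endoplasmic reticulum. Lman1 fell by 0.42 ± 0.10 on Matrigel (SE; limma adjusted p = 0.0318), and Mcfd2 fell by 0.47 ± 0.11 on collagen I (SE; limma adjusted p = 0.0434). Both calls were close to the threshold: with 1 array left out, adjusted p reached 0.189 for Lman1 and 0.150 for Mcfd2, and the call was lost in 6 of 9 such fits for Lman1 and in 7 of 9 for Mcfd2. None of the 19 passed between Matrigel and collagen I, where 3 had an unadjusted p under 0.05 in limma.

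Of 11 coagulation inhibitors other than those above, none passed in any comparison. Between Matrigel and plastic 0 had an unadjusted p under 0.05 in limma, and 2 had one in each of the other comparisons. Procr, which encodes the endothelial protein C receptor, was 5.91 to 6.17 on Matrigel, 6.17 to 6.59 on collagen I and 6.04 to 6.33 on plastic. Pros1, which encodes protein S, was 8.97 to 9.86 on Matrigel, 9.16 to 9.61 on collagen I and 9.49 to 10.17 on plastic. Both overlapped between surfaces.

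Among 9 genes of the other protease-activated receptors and of the G proteins and arrestins they use, 2 rose on Matrigel against plastic. Over all genes 4.52% rose there. Both of the listed genes that rose encode G protein alpha subunits that PAR1 can couple to. Gna12 rose by 0.45 ± 0.07 (SE; limma adjusted p = 0.00677) and Gna13 by 0.66 ± 0.17 (SE; limma adjusted p = 0.0435). Without the Matrigel array of letter A Gna12 did not pass (adjusted p = 0.0528), and Gna13 did not pass in 6 of the 9 fits without 1 array (adjusted p up to 0.244). Gna13 also did not pass with the letter as a fixed replicate block (0.71, adjusted p = 0.0530), with re-centred arrays (0.0678), with every row tested (0.0592), with array weights (0.0501) or with plastic letters A and S only (0.178). F2rl1, which encodes PAR2, was dim on all surfaces, at 3.63 to 4.01 on Matrigel, 4.01 to 4.21 on collagen I and 4.01 to 4.22 on plastic. None of these 9 genes passed between collagen I and plastic or between Matrigel and collagen I, with 2 at an unadjusted p under 0.05 in limma in each.

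The 3 genes most like each of the 8 over the 9 arrays were found by Pearson r among 1651 genes with a mean level above 4.25 and a span of at least 1 on the log2 scale. F3 was followed most closely by Eml1 (Pearson r = 0.995), Atp10a (r = 0.984) and Acvrl1 (r = 0.976). Eml1 averaged 6.85 on Matrigel, 7.33 on collagen I and 7.94 on plastic, a much smaller span than that of F3. Plaur was followed by Runx1 (r = 0.995), Rhob (r = 0.985) and Chst11 (r = 0.983). The transcription factor gene Runx1 averaged 9.35 on Matrigel, 10.01 on collagen I and 8.71 on plastic. F2r was followed by Vcl (r = 0.988), Il33 (r = 0.974) and Fermt2 (r = 0.972), and Tfpi by Rnase4 (r = 0.985), Aldoc (r = 0.979) and Hs6st1 (r = 0.974). Vcl, the vinculin gene, averaged 7.97 on Matrigel, 8.87 on collagen I and 8.88 on plastic. For the 4 genes that passed in no comparison, the nearest were Enpp1 for Tfpi2 (r = 0.984), followed by Itgb3 and Lmna, and Rhbg for Thbd (r = 0.874), followed by Siglec10 and Acaa2. Slfn2 was nearest to Plau (r = 0.948), followed by Dhx58 and Plekha4, and Tmem140 to Plat (r = 0.955), followed by Plekha4 and Lgi3. Among the 8 genes themselves, Plau and Plat had r = 0.834, Tfpi2 and Plaur r = 0.862, and Plaur and Plat r = -0.763. These correlations describe arrays that fall into 3 surfaces and carry no test.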

How the data were processed

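Total RNA of 9 cultures was hybridised to 9 Affymetrix arrays. The deposited values are log2 expression levels that the authors made with RMA, per the submitters' processing notes. Which program ran it and with which annotation is not stated in those notes. The deposited table held 29215 rows, of which 15310 carried 1 gene symbol, 323 several and 13582 none. The row with the highest mean was used per gene, giving 14506 genes, and no further normalization was applied. limma 3.58.1 in R 4.3.3 estimated 1 mean for each surface from the 9 arrays together, leaving 6 residual degrees of freedom, with Benjamini-Hochberg adjustment over all genes and a threshold of 0.05. The procedure was tested on simulated data: between Matrigel and plastic it called 98% of 100 genes changed by 2 and 87% of 100 changed by 1 on the log2 scale, among 14506 genes. For a change of 1 the share was 93% between collagen I and plastic and 84% between Matrigel and collagen I. The changed genes were drawn at random from all genes, with independent noise and no letter effect. Between Matrigel and plastic the SE was 0.45 for Tfpi2, 0.42 for Plau and 0.41 for Plat, so these shares need not hold for them. The number of arrays limits the precision.

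The 8 genes and the other lists were chosen with earlier results of these data known. Named are all 8, each pathway gene past the threshold in at least 1 comparison, Serpine2, Procr, F2rl1, Pros1 and Plg, and the 3 genes most correlated with each of the 8. Same-letter collagen I and plastic arrays deviated together from their surface means (letter A 0.196, letter P 0.234, letter Z 0.269, Pearson r). The collagen I array of letter A had a higher correlation with the plastic array of letter S (0.243). Deviations from a group mean cancel out, which pushes unlike-letter values down, so these values do not settle whether the letter marks a pairing. For Matrigel the correlations were -0.131 for A and 0.406 for S. The 2 Matrigel arrays deviate by equal and opposite amounts, so these are not separate checks. The main fit did not use the letter in any comparison, and it entered only as an alternative. Alternatives were other scalings, a filter on dim genes, every row, 2 surfaces only, other moderation, array weights, the letter as a block, and leaving out each array. Promoter sequences were from RefSeq.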

Additional observations from a re-analysis of the deposited data

Results flagged for a closer look

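On plastic, Lrp1 was 10.88 on the array of letter S, far above the other plastic arrays at 10.45 to 10.49. Gna12 was 8.74 on the same array, below the other plastic arrays at 8.82 to 8.83. These were the 2 groups of 4 arrays in which 1 array stood apart by Dixon's test among 19 genes examined, none of them among the 8 genes described above, and chance alone gives this in about 1 of 20 groups.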

How the results depend on the processing

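Of 440 recomputed values of the 8 genes, 395 kept direction and side of the threshold, 24 lost the call, 9 gained it and 12 changed sign. Over all genes, Matrigel and plastic differed in 1504 and, with plastic letters A and S only (chosen after seeing the data), in 628. Matrigel and collagen I differed in 387, but in 0 with only these surfaces fitted (2094 at an unadjusted p under 0.05 in limma), 257 with array weights and 66 with the letter as a fixed replicate block. With that block 1504 of 14506 genes passed between Matrigel and plastic, the same number as without it, and 6 of the 8 genes, adding Plaur (1.16, adjusted p = 0.0115), Plau (-0.95, 0.0105) and Plat (-1.11, 0.0136). Between Matrigel and collagen I 0 of the 8 genes passed with every row tested, 2 surfaces, array weights or the block (4, 4, 4 and 6 at an unadjusted p under 0.05 in limma). The block changed no call of the 8 genes between collagen I and plastic.

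Without 1 array, 759 to 1461 genes differed between Matrigel and plastic (759 without Matrigel letter A, 989 without plastic letter A), 552 to 870 between collagen I and plastic and 68 to 352 between Matrigel and collagen I. Of the 8 genes, 2 to 4, 2 to 3 and 0 to 2 passed in these comparisons. Re-centring the arrays gave 512 higher and 1036 lower genes on Matrigel against plastic, where the main setting gave 655 and 849, and 122 and 259 between Matrigel and collagen I, where it gave 176 and 211. Quantile normalization applied again gave 773 higher and 692 lower genes on Matrigel against plastic, and testing every row gave 1104 and 961, so the majority direction depends on these settings. Between Matrigel and collagen I the same settings gave 191 and 201, and 265 and 210.

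Signs changed only in differences that were not called. With the fixed replicate block these were Thbd (-0.0064) between Matrigel and plastic, F2r (-0.14) and Plau (0.19) between collagen I and plastic, and Tfpi2 (0.0780), Thbd (-0.0048) and Plat (-0.59) between Matrigel and collagen I. Quantile normalization applied again gave Pros1 0.0253 between Matrigel and collagen I. Without 1 array, the ranges between Matrigel and plastic were Procr -0.27 to 0.0017, Pros1 -0.83 to 0.0546 and Plg -0.14 to 0.0371. Between collagen I and plastic they were Thbd -0.36 to 0.15, F2r -0.12 to 0.33, Plau -0.31 to 0.21, Plg -0.0511 to 0.13 and F2rl1 -0.0797 to 0.0282. Between Matrigel and collagen I they were Plat -0.13 to 0.45 and Pros1 -0.49 to 0.40. The cause was not tested for any of these changes.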

Other observations

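F13a1, which encodes the A subunit of the fibrin-crosslinking factor XIII and was chosen after its values were seen, was 8.92 and 9.31 on Matrigel in letters A and S. It was 8.14, 7.42 and 8.88 on collagen I in letters A, P and Z, and 8.11, 6.79, 8.13 and 6.75 on plastic in letters A, P, S and Z. Its difference between Matrigel and plastic was 1.68 and did not pass (limma adjusted p = 0.0788). On plastic it was higher in letters A and S, as Plau, Plat and the macrophage marker mean were.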
